A study of Mus musculus with 2 samples.

Results

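Hcn4, Kcnj3 and Kcnj5 encode channels that set and slow the heartbeat, and their transcript levels were compared between cells sorted from Isl1 mutant and control sinoatrial nodes of mouse embryos. The genes were chosen by name as Hcn4, Hcn2, Kcnj3 and Kcnj5. Of these 4 symbols, 3 had a row among the 12557 genes of the deposited table, and Hcn2 was not analysed here. Hcn4 was lower in the mutant library, at 0.541 RPKM against 1.99 RPKM in the control library, where RPKM is reads scaled to exon length and library size. Kcnj3 was also lower, at 3.94 RPKM in the mutant library against 7.62 RPKM in the control library, while Kcnj5 lay at 29.8 and 27.8 RPKM. A further member of the same channel family, Kcnj6, was higher, at 5.13 RPKM in the mutant library against 1.40 RPKM in the control library.

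Each group was a single pool of ICR embryos that gave 1 library. The mutant embryos carried Hcn4-CreERT2, floxed Isl1 (Isl1f/f) and Rosa-tdTomato, and the controls carried Hcn4-CreERT2, intact Isl1 (Isl1+/+) and Rosa-tdTomato. Tamoxifen, which activates the CreERT2 recombinase, was given to both groups at E10.5 (E, embryonic day). For harvest the labels give both embryonic day 12.5 and 36 hours after tamoxifen, which are not the same time when counted from E10.5. Cells were depleted of CD31-bearing endothelial cells and sorted for tdTomato. The sort therefore took cells in which the Hcn4-driven recombinase had been active, in both groups, so Hcn4 had a part in choosing the cells in which it was then measured. The labels do not say whether the CreERT2 allele takes the place of an Hcn4 copy, which all embryos of both groups would share.

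In the sinoatrial node, HCN4 channels open when the membrane becomes more negative and carry the inward "funny" current that helps to bring a pacemaker cell to its next beat. Cyclic AMP binds to the channel and makes it open more easily, so adrenergic input speeds the beat. HCN2 is a related channel that responds strongly to cyclic AMP. GIRK channels work the other way: they are potassium channels that open when G protein beta-gamma subunits bind them, after acetylcholine from the vagus nerve has activated M2 muscarinic receptors, and they slow the beat. The atrial and nodal GIRK channel is built from GIRK1, the product of Kcnj3, and GIRK4, the product of Kcnj5. GIRK1 needs a partner subunit to form a working channel, whereas GIRK4 can also assemble with itself. GIRK2, the product of Kcnj6, is best known as a subunit of neuronal GIRK channels.

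With 1 library a group, no p-value can be given, and differences below are differences between 2 libraries. Intervals are exact 95% intervals for counting error only and do not cover the spread between pools. They treat reads as independent, and read copies made by PCR are not independent molecules, so the intervals may be too narrow. The values rest on 119018888 reads in the mutant library and 110117186 reads in the control library. Isl1 itself, the targeted gene, stood at 1.52 RPKM in the mutant library against 7.65 RPKM in the control library, 5.02-fold lower (interval 4.53 to 5.56). The labels do not say which exons are floxed, so this value can include reads from outside the deleted part. Of 2747 genes of like level 7.39% were at least 2-fold lower and 1.09% at least 2-fold higher. All 15 listed cardiomyocyte markers were measured. Tbx3, Shox2 and Isl1, which mark the node, had 9.90, 14.8 and 7.65 RPKM in the control library. In the mutant library these genes had 3.45, 8.64 and 1.52 RPKM. Tbx18, from the same list of node transcription factors, had 3.81 RPKM in the mutant library and 4.77 RPKM in the control library.

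**Figure D1:**
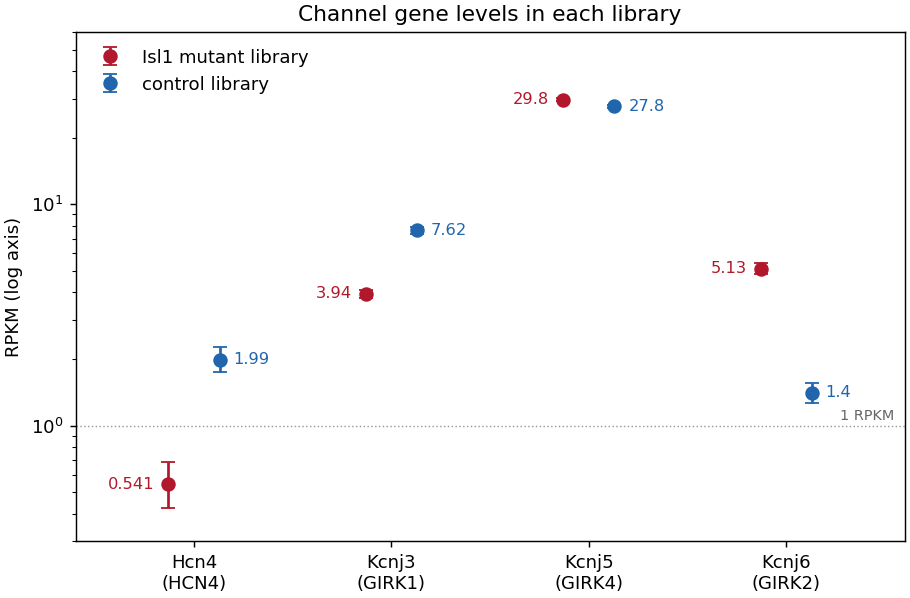
Level of Hcn4, Kcnj3, Kcnj5 and Kcnj6 in the Isl1 mutant library (red, left of each pair) and the control library (blue, right), in RPKM on a log axis; bars are exact 95% Poisson intervals for counting error, each from 1 library. Hcn4 is the lowest of the 4 genes in the mutant library (0.541 RPKM), Kcnj5 lies near 29 RPKM in both, and Kcnj3 and Kcnj6 change places between the libraries.

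Hcn4 (ENSMUSG00000032338, chr9:58671319-58708762 in mm9, plus strand) had 0.541 RPKM in the mutant library, with an interval of 0.423 to 0.683. In the control library it had 1.99 RPKM, with an interval of 1.74 to 2.25, so these counting intervals do not overlap. The mutant value was 27.3% of control. This is 3.67-fold lower, with bounds of 2.80 and 4.85, and rests on no fewer than 71 mutant and 241 control reads. Those read numbers are the smallest that give both values as whole reads, on a counted length of 1102 bases. The 6 inner exons of Hcn4 alone add up to 1358 bases in GENCODE release M 21, so a counted length that holds these exons is a larger multiple of 1102. The largest multiple that fits into the 6118 bases of all 8 listed exons corresponds to 355 mutant and 1205 control reads and narrows the fold interval to 3.26 to 4.14. No other gene of the table overlaps Hcn4.

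The low level of Hcn4 bears on how its ratio is read. In the control library 24.0% of the table's genes had a lower value than Hcn4, and in the mutant library 5.49% did. A gene is listed only if it reaches 1 RPKM in at least 1 library, so Hcn4 is listed on its control value alone, and a gene below 1 RPKM in the mutant library had to be lower there to be listed. Its log2 ratio of -1.88 was set beside those of 3064 genes whose higher value lay within 1.5-fold of its own, between 1.32 and 2.98 RPKM. The median of these genes was -0.45, their 5th percentile was -2.36 and their 95th percentile was 1.00. Of them 26.2% were at least 2-fold lower in the mutant library and 5.03% at least 2-fold higher. A ratio as low as that of Hcn4 or lower was held by 257 genes, or 8.39% (exact binomial interval 7.43 to 9.43). Hcn4 was thus further down than most genes of its level, by 1.42 log2 units from their median, but inside the range between their 5th and 95th percentiles. In bulk RNA, fewer cells that express Hcn4 and less Hcn4 RNA in each cell cannot be told apart.

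Kcnj3 (ENSMUSG00000026824, chr2:55288381-55450556 in mm9, plus strand) had 3.94 RPKM in the mutant library (interval 3.77 to 4.11). The control library had 7.62 RPKM (interval 7.37 to 7.87), which lies apart from the mutant interval. The mutant value was 51.7% of control, 1.93-fold lower, with bounds of 1.83 and 2.04 (no fewer than 2052 mutant and 3671 control reads). Among 2752 genes of like level, between 5.08 and 11.4 RPKM, the median log2 ratio was -0.21, beside -0.95 for Kcnj3. Of these genes 7.45% were at least 2-fold lower and 1.09% at least 2-fold higher, and 8.54% had a ratio at or below that of Kcnj3. The first 1891 bases of the Kcnj3 locus lie over Gm17595, an opposite-strand lincRNA gene at 1.02 RPKM in the mutant library and 1.41 RPKM in the control library. The library kit is not stated to keep strand, so reads from that stretch cannot be assigned to either gene.

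Kcnj5 (ENSMUSG00000032034, chr9:32122368-32151822 in mm9, minus strand) was the best expressed member by far. It had 29.8 RPKM in the mutant library (interval 29.3 to 30.2) and 27.8 RPKM in the control library (interval 27.3 to 28.3). This put it above 90.3% of genes in the mutant library and 88.9% in the control library. The mutant value was 1.07-fold higher, with bounds of 1.05 and 1.10 (no fewer than 16244 mutant and 14026 control reads), and 29.7% of 1232 genes of like level had a ratio at least as high. Among those genes 2.19% were at least 2-fold lower and 0.812% at least 2-fold higher. The direction rests on the scaling: relative to the median ratio of the 15 cardiomyocyte markers, which was 0.29, the log2 ratio of Kcnj5 was -0.19 in place of 0.10. No other gene of the table overlaps Kcnj5.

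Of the 3 measured members, 1 (Hcn4) was at least 2-fold lower and 0 were at least 2-fold higher, beside 14% and 3.27% of all 12557 genes. At 1.5-fold, 2 of the 3 (Hcn4 and Kcnj3) were lower and 0 higher, beside 27.4% and 7.36% of all genes. Hcn4 is listed through its control value only, so its direction was fixed in both counts. Under the rule that also asks for 5 RPKM in at least 1 library and compares log2(RPKM + 1), 0 of the 3 passed, beside 1% higher and 2.73% lower among 6372 genes that reach that level. Hcn4 misses that rule by its level and, at -0.95 on that scale, by its fold, and Kcnj3 by its fold. In order of level the members stood the same way in both libraries, Kcnj5 highest, then Kcnj3, then Hcn4, and neighbours in this order lay outside each other's counting intervals.

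**Figure D2:**
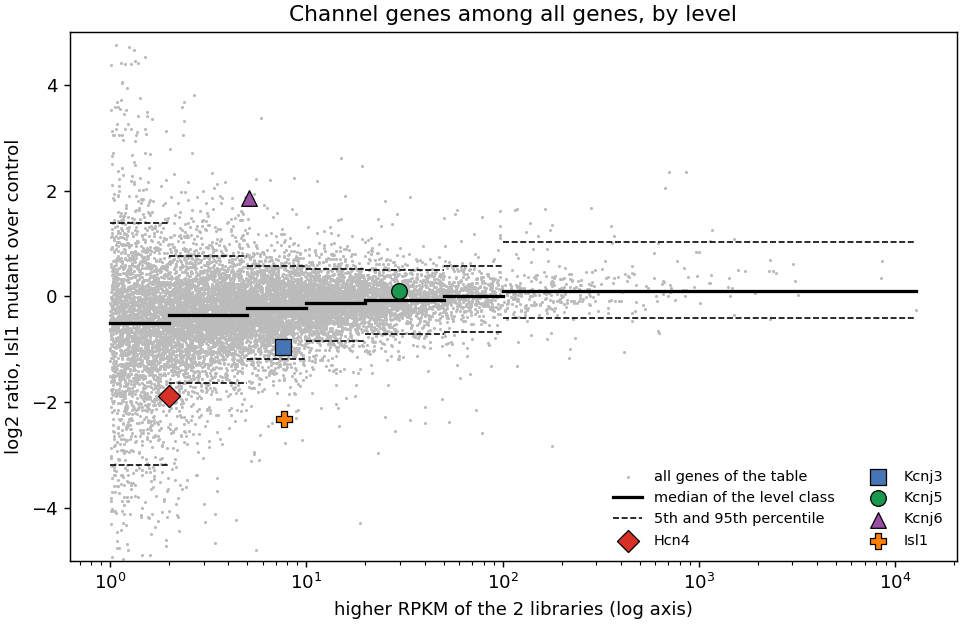
Log2 ratio, Isl1 mutant over control, of every gene (grey points) against the higher of its 2 RPKM values on a log axis, with the median (solid) and the 5th and 95th percentiles (dashed) of 7 level classes; each point is 1 gene and 53 genes beyond 5 log2 units are outside the plot. The spread narrows from left to right: Hcn4 at -1.88 lies just below 2 RPKM where ratios scatter widely, Kcnj3 at -0.95 lies above the lower dashed line, Kcnj5 at 0.10 lies near the median and Kcnj6 at 1.87 lies far above the upper dashed line.

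**Figure D3:**
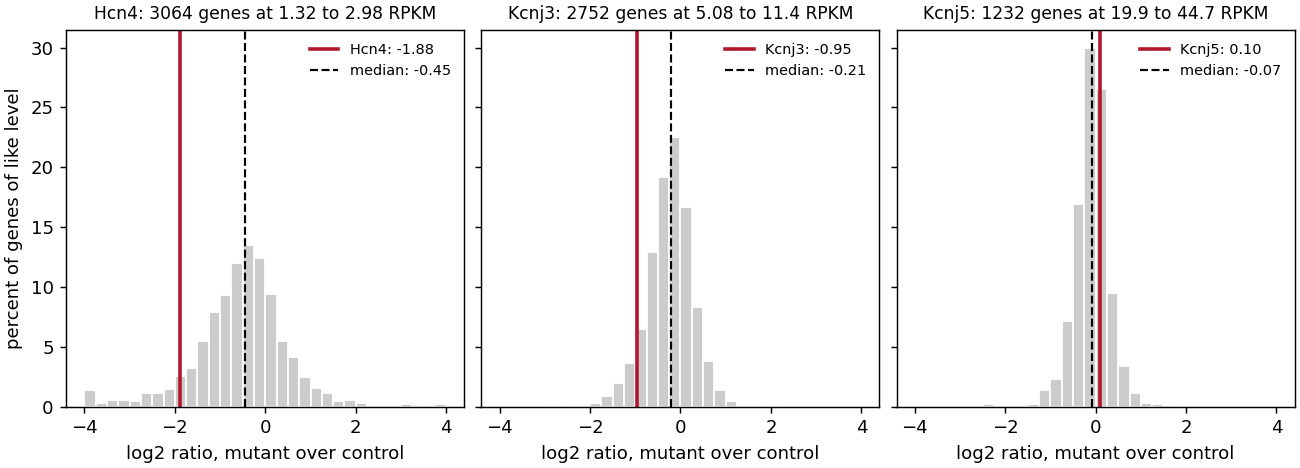
Share of genes of like level (percent, vertical axis) by log2 ratio, mutant over control (horizontal axis, in bins of equal width, with the outermost bins holding all values beyond them), for Hcn4, Kcnj3 and Kcnj5; the red line is the channel gene and the dashed line the median of its 3064, 2752 or 1232 comparison genes. Hcn4 and Kcnj3 lie in the lower tail of their distributions, with 8.39% and 8.54% of genes at or below them, and Kcnj5 lies close to the centre.

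Quotients of 2 genes within a library do not depend on how the libraries were scaled to each other. Kcnj5 stood at 7.56 times the RPKM of Kcnj3 in the mutant library and at 3.65 times in the control library, a 2.07-fold difference. Kcnj3 stood at 7.28 times the RPKM of Hcn4 in the mutant library and at 3.84 times in the control library, a log2 difference of 0.92 that was 0.15 with 1 RPKM added to each value and turned to -0.16 with 5 RPKM added. Kcnj5 stood at 55.0 times the RPKM of Hcn4 in the mutant library and at 14.0 times in the control library, a 3.93-fold difference. The RNA for the GIRK4 subunit thus outweighed the RNA for GIRK1 and HCN4 in both libraries, and by more in the mutant library.

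Kcnj6 is outside the named set, but its values alter the make-up of GIRK transcripts. It had 5.13 RPKM in the mutant library and 1.40 RPKM in the control library, 3.65-fold higher, with bounds of 3.24 and 4.12 (no fewer than 1366 mutant and 346 control reads). It passed the rule of size only through its mutant value, whose interval of 4.86 to 5.41 RPKM spans the floor of 5 RPKM. Of 2980 genes of like level 8 (0.268%) had a ratio at least as high, while 1.98% of them stood 2-fold or more above control and 10.1% 2-fold or more below. Summed over Kcnj3, Kcnj5 and Kcnj6, GIRK transcripts reached 38.8 RPKM in the mutant library and 36.8 RPKM in the control library. Kcnj3 made up 10.1% of this sum in the mutant library and 20.7% in the control library. Kcnj6 made up 13.2% in the mutant library and 3.81% in the control library, and Kcnj5 76.7% and 75.5%. The total of the 3 genes therefore differed little, 1.06-fold, while Kcnj6 stood above Kcnj3 in the mutant library and below it in the control library. Markers of neurons and glia, cells in which Kcnj6 is also made, summed to 13.3 RPKM in both libraries. Of 10 such markers 6 were measured, with 3 higher and 3 lower, beside 67.2% of all genes lower. The 3 lower ones are listed through the control library only, so their direction was fixed. The 3 that reached 1 RPKM in each library were higher in the mutant library, the direction of Kcnj6. Nefl and Nefm are among these 3 and overlap on opposite strands, so part of their reads may be shared. Nefl, a neurofilament gene that overlaps Nefm, was 2.28-fold higher, and Elavl3 and Tubb3, a neuronal RNA-binding protein and tubulin, were 11.1-fold and 4.74-fold lower. The part of such cells in the Kcnj6 result was not tested.

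**Figure D4:**
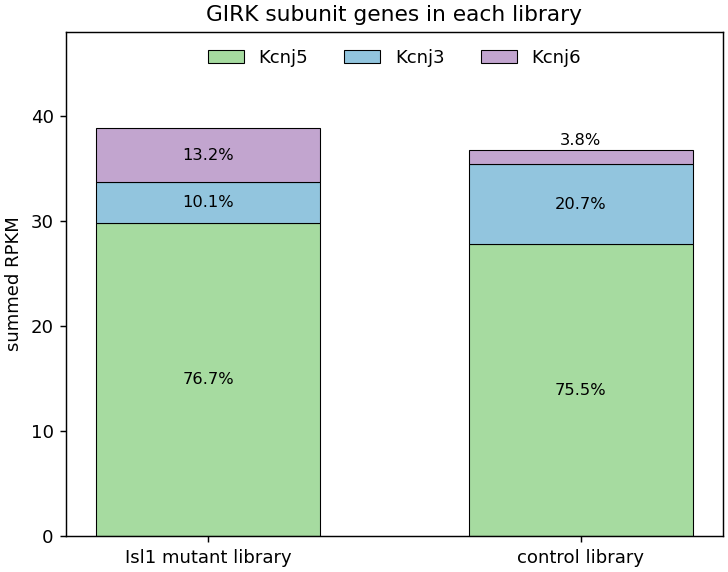
Summed RPKM of the GIRK subunit genes Kcnj5, Kcnj3 and Kcnj6 in the Isl1 mutant library (left) and the control library (right), with the share of each gene printed in or above its bar segment, 1 library a bar and no error bars. The total is close to 37 to 39 RPKM in both, while the Kcnj3 segment is smaller (10.1% against 20.7%) and the Kcnj6 segment larger (13.2% against 3.81%) in the mutant library.

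These subunits are related, so a check was made that their reads can be told apart. The stretches below are from the longest open reading frame of each gene in GENCODE M 21 transcripts, and each is 90 bases long, the length of 1 read. They are shown because they hold the selectivity filter, the part of a potassium channel most alike between families, whose glycine-tyrosine-glycine codons are in capitals.
Hcn4, chromosome 9, coding bases 1399 to 1488: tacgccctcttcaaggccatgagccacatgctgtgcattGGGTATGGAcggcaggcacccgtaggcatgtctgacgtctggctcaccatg
Kcnj3, chromosome 2, coding bases 394 to 483: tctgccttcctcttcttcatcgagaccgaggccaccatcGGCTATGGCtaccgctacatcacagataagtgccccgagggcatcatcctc
Kcnj5, chromosome 9, coding bases 412 to 501: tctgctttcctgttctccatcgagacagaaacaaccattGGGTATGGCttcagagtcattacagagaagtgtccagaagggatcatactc
Kcnj6, chromosome 16, coding bases 427 to 516: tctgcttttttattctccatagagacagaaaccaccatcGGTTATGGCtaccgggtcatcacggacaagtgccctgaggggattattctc
Kcnj5 and Kcnj6 are identical at 72 of these 90 bases, Kcnj3 and Kcnj5 at 69 and Kcnj3 and Kcnj6 at 71, while Hcn4 matches the 3 GIRK genes at 35 to 38. Over the whole coding sequences the longest run shared by Kcnj5 and Kcnj6 was 22 bases, and by Kcnj3 with either 14 bases. No read position of the Hcn4, Kcnj5 or Kcnj6 transcript was found in a transcript of another gene (0 of 6029, 4596 and 3008 positions). For Kcnj3, 1446 of 5126 positions (28.2%) were also in Gm26794, the M 21 lincRNA gene on the opposite strand over its start. The check looked for exact matches of 90 bases among M 21 transcripts only, so reads aligned with mismatches were not covered. Of the 4 listed Kcnj6 exons 2 are in M 21 under the same name, so part of the sequence behind its value may not have been checked.

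Genes that act on HCN channels are set beside a background in which 67.2% of all genes had a log2 ratio below 0. Of 8 listed HCN partner genes 6 were measured, 4 lower and 2 higher, with a median log2 ratio of -0.38 beside -0.22 for all genes. At least 2-fold lower were 2 of the 6, beside 14% of all genes, and 1 of these, Lrmp, is listed through its control value only. Lrmp, whose product blunts the response of HCN4 to cyclic AMP, was at 0.676 RPKM in the mutant library and 1.55 RPKM in the control library, 2.28-fold lower (interval 1.91 to 2.74). Mrvi1, whose product acts on HCN4 in the opposite sense, had 3.57 and 4.22 RPKM. Flna, which encodes an actin crosslinker, was 2.22-fold lower at 14.0 RPKM in the mutant library against 31.1 RPKM in the control library. Cav3, the muscle caveolin, was 1.33-fold higher, and Nedd4l, a ubiquitin ligase gene, had 8.49 and 7.10 RPKM.

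Cyclic AMP input raises the opening of HCN4. Of 12 listed genes 6 were measured, and 5 of these were lower and 1 higher, beside 67.2% of all genes lower. Their median was -0.89, beside -0.22 for all genes. At least 2-fold lower were 2 of the 6 and at least 2-fold higher 1, beside 14% and 3.27% of all genes. The direction of 3 of the 6 (Adcy3, Adcy4 and Adcy1) was fixed by the 1 RPKM needed for listing, which each reached in a single library, and the other 3 were lower. Adcy5 and Adcy6, the main adenylyl cyclases of heart muscle, were 1.78-fold lower (6.26 RPKM in the mutant library, 11.1 RPKM in the control library) and 1.92-fold lower (2.13 and 4.09 RPKM). Adcy4 had 0.104 RPKM in the mutant library and 2.25 RPKM in the control library, from at least 47 and 939 reads, and Adcy3 was 2.89-fold lower. Adcy1, a calcium-stimulated cyclase, was the exception, at 1.12 RPKM in the mutant library against 0.388 RPKM in the control library, 2.87-fold higher (interval 2.49 to 3.32). Gnas, which encodes the stimulatory G protein alpha subunit, was the best expressed of the list at 40.7 and 52.2 RPKM. Gnas and Adcy3 each overlap an opposite-strand gene of the table (AF085738 and Cenpo), with which they may share reads.

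Upstream of the GIRK channel, 4 of 10 listed receptor genes were measured, 3 lower and 1 higher, beside 67.2% of all genes lower. At least 2-fold lower was 1 of the 4 and at least 2-fold higher 1, beside 14% and 3.27% of all genes. Chrm2, the M2 muscarinic receptor gene through which the vagus acts, had 1.75 RPKM in the mutant library and 2.43 RPKM in the control library, 1.38-fold lower (interval 1.283 to 1.495). Adora1, the adenosine A1 receptor gene, had 7.57 RPKM in the mutant library and 10.2 RPKM in the control library, 1.35-fold lower (interval 1.29 to 1.41). S1pr1, a sphingosine-1-phosphate receptor gene also made in endothelium, was 2.22-fold higher, at 14.4 RPKM in the mutant library against 6.49 RPKM in the control library. Sstr2, a somatostatin receptor gene, was low in both at 0.247 and 1.42 RPKM, from at least 3 and 16 reads, and is listed through its control value only. Chrm2 overlaps an opposite-strand transcript over 2108 bases and Adora1 overlaps Mybph over 2010 bases, and Sstr2 lies within Slc39a11, so part of their reads may be shared.

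Among 20 listed G protein genes 15 were measured, 10 of them lower and 5 higher, beside 67.2% of all genes lower. Their median was -0.31, beside -0.22 for all genes. The share at least 2-fold lower was 2 of 15, Gnb2 and Gng7, and none was at least 2-fold higher, beside 14% and 3.27% of all genes, so the lower share is near that of the whole table. Gng7 is listed through its control value only. Gnb2, a beta subunit gene, had 4.69 RPKM in the mutant library and 11.0 RPKM in the control library, 2.35-fold lower, and its relative Gnb1 was 1.97-fold lower. Gnai3, an inhibitory alpha subunit gene and one of the 2 best expressed of the list, was 1.56-fold lower (27.4 and 42.7 RPKM), and the gamma subunit gene Gng2 was 1.61-fold lower. Gnb5, which encodes a beta subunit that pairs with R7 family RGS proteins rather than with a gamma subunit, was the best expressed at 77.9 RPKM in the mutant library and 61.8 RPKM in the control library, 1.26-fold higher.

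Regulators that end GIRK signalling differed in both directions. RGS proteins speed the shut-off of G proteins, and in the mouse node Rgs4 and Rgs6 limit the slowing of the beat by the vagus. Rgs4 had 12.7 RPKM in the mutant library and 48.9 RPKM in the control library, 3.85-fold lower, with bounds of 3.72 and 3.97 (no fewer than 4827 mutant and 17173 control reads). Rgs6 had 22.7 RPKM in the mutant library and 34.2 RPKM in the control library, 1.504-fold lower (interval 1.46 to 1.55). Rgs11, another R7 family gene, was 3.70-fold higher, at 4.88 RPKM in the mutant library against 1.32 RPKM in the control library (interval 3.19 to 4.30). Adrbk1, the receptor kinase GRK2 gene, was 2.01-fold lower, and Kctd12, an auxiliary subunit gene of GABA-B receptors that lies over the opposite-strand gene Gm17446, 1.69-fold lower. Over the list, 7 of 10 genes were measured, 6 lower and 1 higher, 2 of them at least 2-fold lower and 1 at least 2-fold higher, with a median of -0.59. Of all genes 67.2% were lower, 14% at least 2-fold lower and 3.27% at least 2-fold higher. Adrbk1, 1 of the 2, is listed through its control value only.

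**Figure D5:**
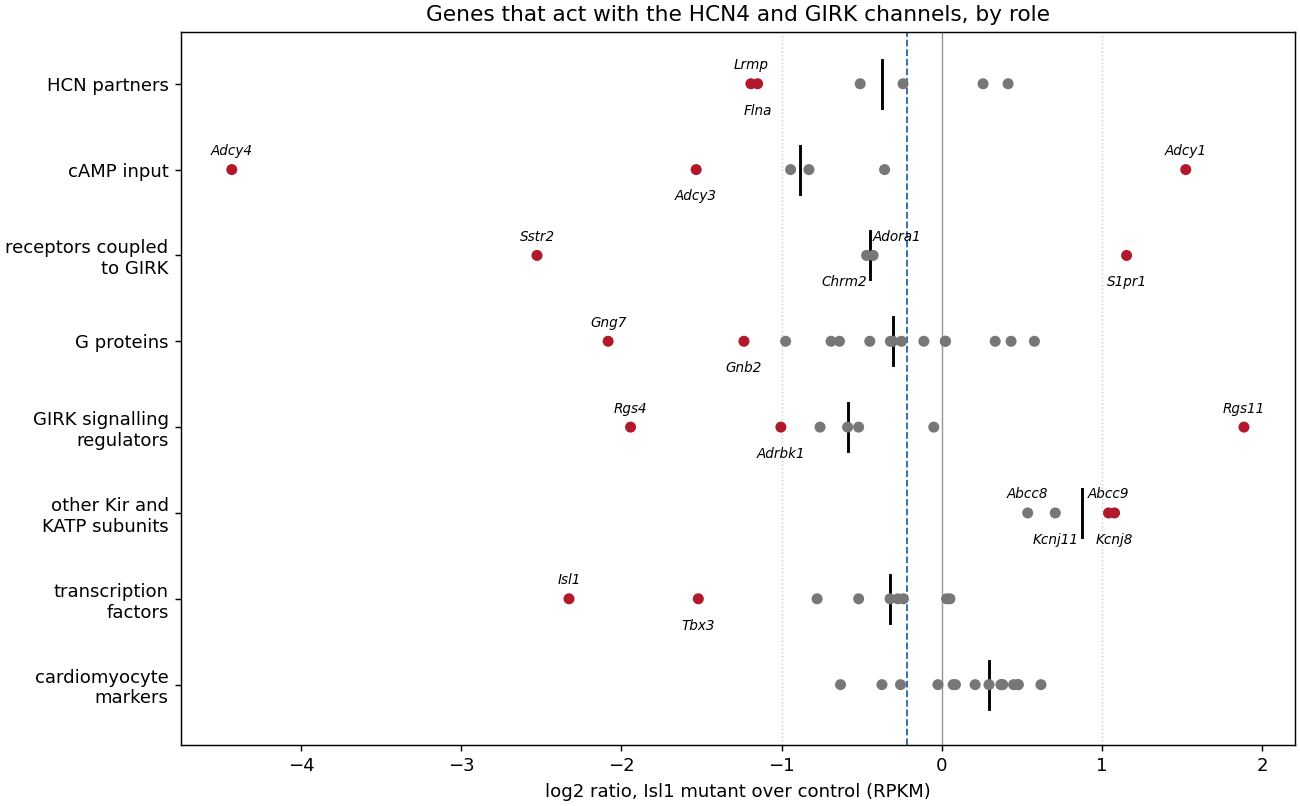
Log2 ratio, Isl1 mutant over control, of measured genes that act with HCN4 and GIRK channels, grouped by role, with cardiomyocyte markers as the bottom group; each point is 1 gene, red points differ at least 2-fold, the black tick is the median of the group and the dashed blue line the median of all genes (-0.22). Names are given for genes at least 2-fold different and for all receptors and other inward rectifier genes. Among the groups shown, the cAMP group has the lowest median (-0.89) and the other Kir and KATP group the highest (0.87). Both medians include genes listed through a single library (Adcy1, Adcy3 and Adcy4, and Kcnj8), whose direction was fixed.

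Transcription factor genes of the node were set beside the channels. Of 10 listed genes 9 were measured, 7 lower and 2 higher, 2 of them at least 2-fold lower, with a median of -0.32, beside 67.2% lower and 14% at least 2-fold lower among all genes. Beside Isl1, the targeted gene, this was Tbx3, a repressor of the working muscle programme, at 3.45 RPKM in the mutant library and 9.90 RPKM in the control library. Shox2 was 1.72-fold lower. Tbx5, at 52.6 and 51.5 RPKM, and Mef2c, at 30.1 and 29.1 RPKM, were the best expressed of the list and the 2 above control, and both fall below it when scaled to the cardiomyocyte markers. Tbx3 and Shox2 overlap opposite-strand genes of the table.

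Promoter sequences of the 3 members are given because the members differed in their ratios. They are the 250 bases before the start site in RefSeq on GRCm38.p6, a later build than the mm9 of the table, with matches on either strand to GATA and GGGCGG in capitals.
Hcn4, chr9:58822699-58822948, plus strand: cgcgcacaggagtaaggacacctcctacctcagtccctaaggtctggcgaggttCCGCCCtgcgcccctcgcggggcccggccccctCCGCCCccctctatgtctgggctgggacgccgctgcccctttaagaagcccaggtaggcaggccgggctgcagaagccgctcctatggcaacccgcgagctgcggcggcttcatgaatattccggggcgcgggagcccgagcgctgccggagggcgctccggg
Kcnj3, chr2:55435720-55435969, plus strand: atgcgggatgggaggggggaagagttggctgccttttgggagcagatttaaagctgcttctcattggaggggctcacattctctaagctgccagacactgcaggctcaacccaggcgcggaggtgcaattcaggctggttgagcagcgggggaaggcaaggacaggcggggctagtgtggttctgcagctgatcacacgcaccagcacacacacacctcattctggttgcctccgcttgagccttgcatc
Kcnj5, chr9:32344345-32344594, minus strand: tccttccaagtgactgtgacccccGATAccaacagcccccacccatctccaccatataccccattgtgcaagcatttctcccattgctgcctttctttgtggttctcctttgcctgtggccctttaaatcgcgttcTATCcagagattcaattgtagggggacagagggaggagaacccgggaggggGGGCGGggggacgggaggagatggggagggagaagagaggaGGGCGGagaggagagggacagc
The letters TAAT, the core bound by many homeodomain proteins, were in 0 of these 3 windows and in 54.9% of 32851 RefSeq promoter windows of this length, counting both strands. GATA was found in the Kcnj5 window (2 matches) and in 53.6% of all windows, and GGGCGG, the GC box, in the windows of Hcn4 (2 matches) and Kcnj5 (2 matches) and in 32.7% of all. The Hcn4 window had 71.2% G or C, Kcnj3 58.4% and Kcnj5 58%, beside a median of 52.4%. The shares of all windows were not matched for G or C, and binding to these sequences was not tested.

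The genes most alike in level were found by distance in the 2 log2 values, over 2 libraries and 10436 other named protein-coding genes, so likeness here means only similar values. Nearest to Hcn4 were Dapk2 (0.546 RPKM in the mutant library, 1.998 RPKM in the control library), Adamts5 and Dnahc11, at distances of 0.015 to 0.038 log2 units. Cd82, Kti12 and Kidins220 were nearest to Kcnj3, and Selenbp1, Ccdc56 and Qdpr to Kcnj5.

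Markers of other cells also differed between the 2 libraries and stand beside all values above. Of all genes 67.2% were lower in the mutant library, and the counts below stand beside that share. Cardiomyocyte markers summed to 14045.5 RPKM in the mutant library and 10885.9 RPKM in the control library, with 11 of 15 higher. Working atrial muscle markers summed to 1063 RPKM in the mutant library against 289 RPKM in the control library, with 5 of 6 measured genes higher, most of it Nppa. Markers of 3 other cell types were lower in every measured gene: red cells in 8 of 8 (53.8 RPKM against 323 RPKM in the control library), macrophages in 8 of 8 (8.19 against 43.8 RPKM) and fibroblasts in 9 of 9 (221 against 507 RPKM). Of these, 5 macrophage genes and 1 red cell gene are listed through the control library only, so their direction was fixed, and the 3 macrophage, 7 red cell and 9 fibroblast genes that reached 1 RPKM in each library were lower. Endothelial markers summed to 12.4 RPKM in the mutant library and 24.0 RPKM in the control library. They were lower in 6 of 7 measured genes, 2 of these listed through the control library only. The 1 higher gene is listed through the mutant library only, and the 4 that reached 1 RPKM in each library were lower. Epicardial markers were lower in 4 of 7 genes with a median of -0.13, and summed to 103 RPKM in the mutant library and 84.6 RPKM in the control library, with Krt19 at 28.8 and 9.77 RPKM. Their part in the channel results was not tested. Relative to the median of the cardiomyocyte markers, the log2 ratio of Hcn4 was -2.17 and that of Kcnj3 was -1.25.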

How the data were processed

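Messenger RNA was captured with oligo(dT) from 10 ng of total RNA and sequenced in 90 bp pairs, per the labels' protocols. Trim Galore, FastQC, TopHat2, Bowtie2 and the build mm9 are named, with no versions, in the submitters' processing notes. The tool that counted reads per gene is not stated there. The header names no unit, and the deposited values were taken as RPKM because in 284 small RNA genes of 1 exon, value times length was a whole number of reads in all 284 (control) and in 276 (mutant). These steps gave the library totals. A log2 fold change column, deposited with the levels, matched the log2 of mutant RPKM divided by control RPKM. A column of signed folds, deposited as a score, was not used.

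Values were used as deposited, without a pseudocount. Whole reads, at a tolerance of 0.001, were recovered for 12493 of 12557 genes (99.5%) as the smallest pair that gives both values. A true count can be a multiple of it. Fold intervals are exact conditional binomial and level intervals exact Poisson (scipy 1.17.1, Python 3.11.15). For a symbol with several rows the one of highest mean was kept. Genes of like level are those whose higher value lies within 1.5-fold. Lists of up to 6 measured genes may be named in full. In longer ones the genes named differ at least 1.5-fold or are the 2 of highest level, and in marker lists those of highest level or largest ratio. Exon lengths, for 96.1% of genes, are from GENCODE M 21, with no coordinates taken from it. The scripts were tested on simulated data. Members and lists were chosen with earlier results of these data known. One gene of the transcription factor list is not reported here.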

Additional observations from a re-analysis of the deposited data

How the results depend on the processing

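With 1 library a group, no library could be left out. No paired analysis was possible because each group has a single library and no test was made. Of 62 alternative values of the main results, 29 stayed within the counting interval or within 1.5 times the count, 31 moved further and 2 changed direction. With 1 and 5 RPKM added, the log2 ratio was -0.95 and -0.33 for Hcn4 and -0.80 and -0.50 for Kcnj3. These pseudocounts gave log2 differences in quotient of 0.90 and 0.58 for Kcnj5 over Kcnj3 (1.05 as deposited), 1.05 and 0.42 for Kcnj5 over Hcn4 (1.97), and 0.15 and -0.16 for Kcnj3 over Hcn4 (0.92), the last with its direction turned. Scaling to the cardiomyocyte markers shifts all log2 ratios down by 0.29 and gave -1.25 for Kcnj3 and -0.19 for Kcnj5, with its direction turned. Scaling by a trimmed mean shifts them up by 0.23 and gave -0.72 for Kcnj3 and 0.33 for Kcnj5, and scaling by the median of genes at 5 RPKM gave 0.17 for Kcnj5. With the median of genes of like level and exon length subtracted, an alternative chosen after seeing the data, the log2 ratios were -1.41 (Hcn4), -0.71 (Kcnj3) and 0.21 (Kcnj5). The percent of like genes at least as far was 7.06 for Hcn4 and 7.44 for Kcnj3 by geometric mean, 6.73 for Hcn4 and 23.4 for Kcnj5 by level and length, and 25.9 for Kcnj5 by control value. The 64 genes called higher became 139 at a floor of 1 RPKM and with no floor, 36 at a pseudocount of 5 and 239 at 1.5-fold. The 174 called lower became 503 at a floor of 1 RPKM and with no floor, 70 at a floor of 10, 271 at a pseudocount of 0.1, 36 at a pseudocount of 5 and 756 at 1.5-fold. Matching on exon length was also chosen after seeing the data. Depth limits Hcn4 most, whose fold interval is the widest of the 3 members.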

Other observations

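Of 13 listed genes of other inward rectifiers and their partner subunits, 4 were measured. The 4 were higher in the mutant library, beside 4118 of all 12557 genes. Kcnj8 and Abcc9 lie close together on chromosome 6, and Kcnj11 and Abcc8 on chromosome 7, so the 4 genes are not at separate loci. None of these 4 genes passed the rule of size that asks for 5 RPKM. They encode ATP-sensitive potassium channels, which open when cell energy is low: Kcnj8 and Kcnj11 the pores, Abcc8 and Abcc9 the sulfonylurea receptors. At least 2-fold higher were 2 of the 4, beside 3.27% of all genes, and Kcnj8 is listed through its mutant value only. That share was 7.96% among genes whose higher value lay at 1 to 2 RPKM, as for Kcnj8. It was 3.18% at 2 to 5 RPKM, as for Abcc9. Kcnj8 had 1.93 RPKM in the mutant library and 0.914 RPKM in the control library, 2.11-fold higher, and its usual partner Abcc9 had 4.36 and 2.12 RPKM, 2.06-fold higher. Kcnj11 had 3.18 RPKM in the mutant library and 1.94 RPKM in the control library, 1.63-fold higher, and its partner Abcc8 had 3.50 and 2.41 RPKM, 1.45-fold higher. The median log2 ratio of the 4 genes was 0.87, beside -0.22 for all genes, and no test was possible with 1 library a group.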
